A study of Mus musculus with 24 samples.

Results

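Integrins, laminins and the other genes of the epithelial basement membrane were followed in the epithelial cells of mouse lung organoids that had grown with nylon 6,6 microfibers. The genes were chosen by symbol, by a rule that uses no measured value. It took Itgav and the integrin alpha and beta chains named by a number, not those named by another letter such as Itgam. It took every laminin and collagen IV chain as well, and Col17a1, Nid1, Nid2, Hspg2, Agrn, Dag1, Dst, Plec and Cd151. That gave 48 of the 14557 gene symbols listed for these cells, of which 3 (Col4a3bp, Itgb1bp1 and Itgb1bp2) match the symbol pattern but name no chain. All 48 passed the filter on low counts. Col4a6, Itgb2l, Itgb3bp and Lamc3 match the pattern in GENCODE M21 and had no transcript in the table.

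The organoids were made from primary lung cells of wild-type female C57BL6 mice that carry EpCAM, an epithelial surface protein, and from CCL206 cells, a single mouse lung fibroblast line, with 200000 cells of each seeded in diluted Matrigel. Controls held no fibers, and the other wells held 12000 or 30000 fibers of 12 by 31 µm, mixed in at seeding. After 7 days anti-EpCAM beads split each culture into an epithelial and a fibroblast fraction. There were 4 epithelial libraries per fiber number, from 4 isolations of 4 mice, and each mouse gave a library to every group. Matrigel, present in every well including the controls, is itself a basement membrane extract, so all cells had contact with laminin and collagen IV protein that they had not made.

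Basement membranes are sheets of laminin trimers and collagen IV trimers, joined by nidogens and by the heparan sulfate proteoglycans perlecan (Hspg2) and agrin. Epithelial cells hold on to the sheet through integrins, each an alpha chain paired with a beta chain, and through dystroglycan. Basal cells of the airway and of the skin add hemidesmosomes, in which integrin alpha6 beta4 and collagen XVII bind a laminin that holds the chains Lama3 and Lamb3 outside the cell and plectin and dystonin tie the complex to keratin filaments inside. In the lung, collagen IV trimers of the chains alpha3, alpha4 and alpha5 belong to the alveolar basement membrane, and trimers of alpha1 and alpha2 are found in basement membranes throughout the body.

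Levels are given as CPM, counts per 1e6 of the TMM-scaled total of 1 representative transcript per gene, and differences as log2 fold changes ± SE from edgeR's quasi-likelihood test with Benjamini-Hochberg adjustment over the 13759 genes tested. A gene is called changed at an adjusted p under 0.05. The libraries of the groups differed in kind. Control libraries held 7204371 to 9743738 reads on the representative transcripts, 12000-fiber libraries 6878550 to 10583357 and 30000-fiber libraries only 2799765 to 3723250. Mitochondrial genes took 5.2 to 7.77%, 5.33 to 6.91% and 14.33 to 16.26% of them in that order. At 30000 fibers the log2 fold change also followed transcript length, with a median of 1.24 in the shortest of 20 length classes and -0.26 in the longest, against 0.07 and -0.02 at 12000 fibers. Of the 48 members, 13 lie in the longest class. Summed CPM of fibroblast marker genes ran from 637 to 1901 among the controls, from 2337 to 2711 with 12000 fibers and from 3715 to 4883 with 30000 (17 of 18 markers listed, none at 0 in any group), and the 10 epithelial markers to 6576 to 7664, 6865 to 7705 and 3896 to 4589.

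Of the 48 members, 31 were called at 12000 fibers against control, 16 higher and 15 lower, where 38.0% of all genes tested were called (18.7% higher, 19.3% lower). At 30000 fibers 35 were called, 9 higher and 26 lower, against 65.6% of all genes (32.2% higher, 33.4% lower). Between the fiber doses 35 were called at 30000 against 12000 fibers, 6 higher and 29 lower, against 55.4% of all genes (28.3% higher, 27.1% lower). The member median was 0.05 at 12000 fibers and -0.47 at 30000 fibers, where the median over all genes was -0.03, and -0.25 once the median of the gene's length class was taken off. How the reads of the 30000-fiber libraries are scaled matters here: with TMM factors taken over all listed transcripts, log2 fold changes at 30000 fibers against control rose by about 0.3 (median over all genes 0.31), 12 members were higher and 19 lower, and over all genes 6891 were higher and 2407 lower in place of 4434 and 4592. With that scaling the 30000-fiber calls of Col4a3 (-0.21), Itga1 (-0.37), Itga9 (-0.03), Itgav (-0.08), Itgb3 (-0.18) and Dag1 (-0.01) were lost, and Itgb5 turned to 0.10. Groups did not overlap for 13 higher and 14 lower members at 12000 fibers, where this held for 36.3% of all genes, for 8 higher and 24 lower at 30000 fibers (58.1%) and for 6 higher and 28 lower between the doses (52.3%). The share of members called at 12000 fibers thus exceeded the background in both directions, and at 30000 fibers in the lower direction. Of the 10 epithelial markers, 8 were lower and 1 higher at 30000 fibers, with a median of -0.69, or -0.82 less the length class. The part of a lower epithelial share in the member falls was not tested.

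**Figure D1:**
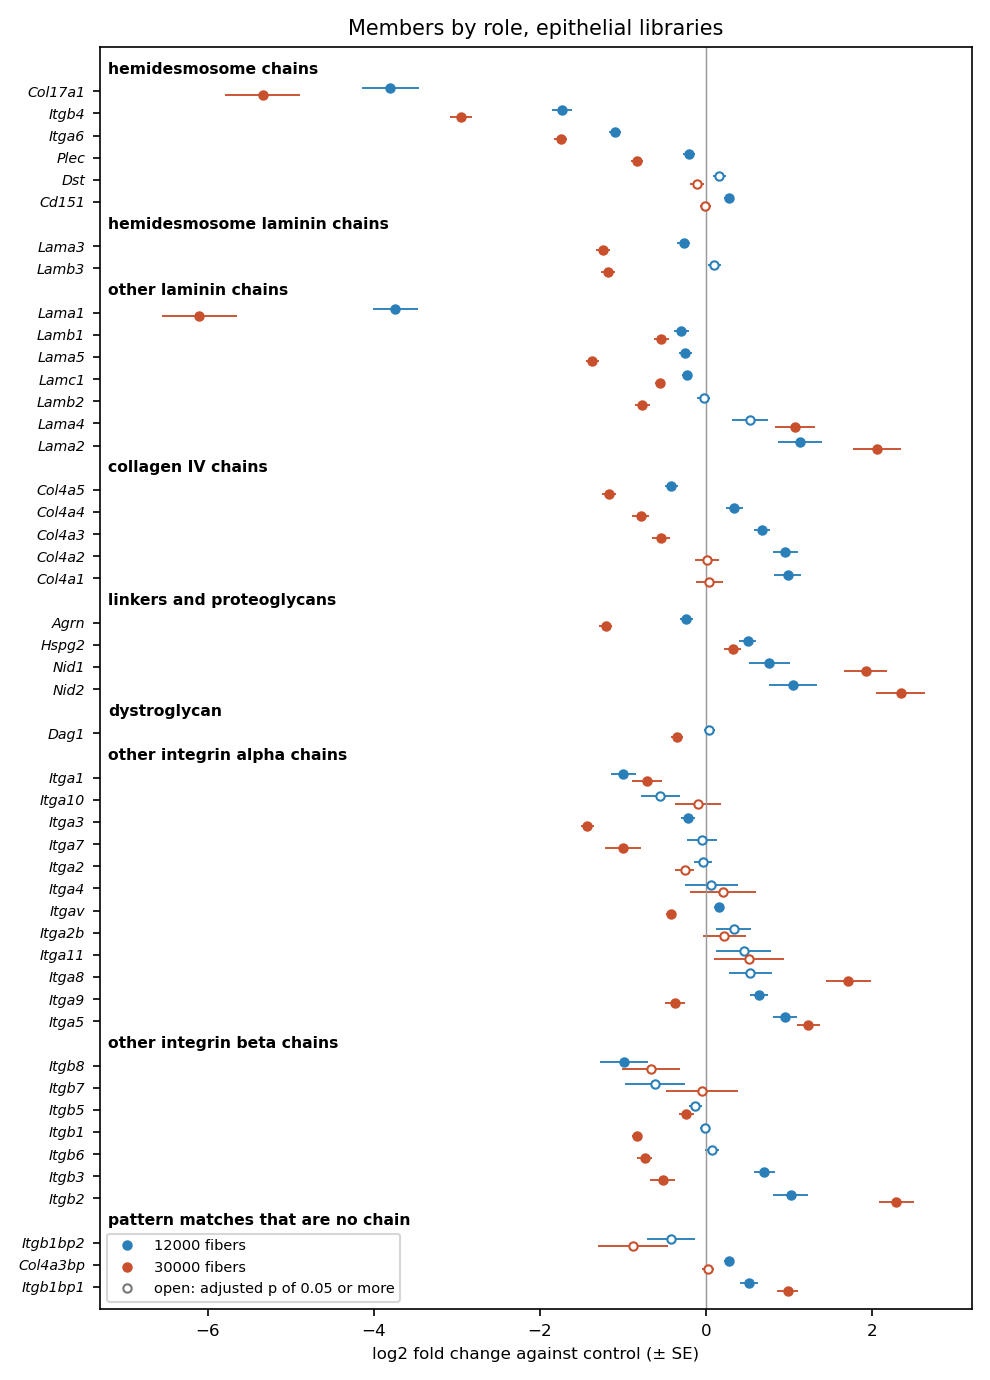
Log2 fold change of each member reported here against control (x axis, points with SE bars), blue for 12000 and red for 30000 fibers, grouped by role, with open points where the adjusted p was 0.05 or more. Col17a1 and Lama1 lie farthest left at both doses, at -3.80 and -3.74 with 12000 fibers, and the linkers Nid1 and Nid2 lie to the right at both.

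The hemidesmosome chains were described apart. Of the 6 chains, 4 were lower at 12000 fibers (Col17a1, Itgb4, Itga6 and Plec), Cd151 was higher and Dst, by its most abundant transcript, was not called, and the median was -0.65. At 30000 fibers the same 4 were lower, none was higher, and the median was -1.29. The falls ran from about 14.0-fold for Col17a1 to 1.16-fold for Plec at 12000 fibers. Airway basal cell markers moved with them: control libraries had a sum of 1576 to 2631 CPM, 12000-fiber libraries 600.5 to 669 and 30000-fiber libraries 333 to 369.8, with none of the 10 markers at 0 in any group. At each dose 9 of the 10 were lower, the higher one being Icam1 at 12000 fibers (0.44 ± 0.09) and Snai2 at 30000 fibers (0.96 ± 0.13). Club and ciliated cell markers fell too. The 5 club markers summed to 373.8 to 954 CPM in controls, 30.5 to 56.7 at 12000 and 196 to 275 at 30000 fibers. Of these, 4 were lower at each dose, and 1 was higher at 30000 fibers. The 5 ciliated markers summed to 95.8 to 133, 50.2 to 54.4 and 28.2 to 43.5 CPM, and all 5 were lower at each dose. In bulk libraries fewer cells of a type and less RNA per cell cannot be told apart. The part of the basal, club or ciliated markers in the hemidesmosome result was not tested.

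Col17a1 codes for collagen XVII, the transmembrane collagen of the hemidesmosome (mm10 chromosome 19, 47646344 to 47692094, minus strand, 54 exons in Col17a1-201). Its CPM in the control libraries of mice 1 to 4 was 516, 296, 271 and 318. At 12000 fibers it was 19.5, 12.1, 37.5 and 32.2, and at 30000 fibers 10.2, 4.59, 12.1 and 7.35. Every control library lay far above every fiber library, and mouse 1 gave the highest control. The log2 fold change was -3.80 ± 0.34 at 12000 fibers (adjusted p = 1.84e-05) and -5.34 ± 0.45 at 30000 fibers (adjusted p = 2.72e-06). Between the fiber doses it was -1.53 ± 0.54 (adjusted p = 0.0357), a call that was lost in a fit blocked by mouse (-1.52, adjusted p = 0.0546) and without mouse 3 or 4 of the 12000-fiber group or mouse 1, 2 or 4 of the 30000-fiber group (-1.61 to -1.29, adjusted p from 0.0578 to 0.0969). That call was also lost with the fibroblast marker level as a covariate (-1.02, adjusted p = 0.205) and with TMM over all transcripts (-1.19, adjusted p = 0.089). The second highest transcript lost it as well (-1.37, adjusted p = 0.0549). The 30000-fiber libraries held 13 to 41 reads of Col17a1. All 5 listed Col17a1 transcripts fell at 12000 fibers, by -4.54 to -3.59.

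Integrin beta4, the chain found only in the alpha6 beta4 pair, comes from Itgb4 (chromosome 11, 115974709 to 116008412, plus strand). It stood at 999.9, 766, 709 and 739.8 CPM in the controls. Libraries with 12000 fibers had 221, 219, 277 and 252 CPM and those with 30000 fibers 90.5, 95.2, 125 and 104. The 3 groups formed separate steps with no overlap. Itgb4 changed by -1.73 ± 0.12 at 12000 fibers (adjusted p = 8.79e-08), by -2.95 ± 0.13 at 30000 fibers (adjusted p = 3.63e-11) and by -1.22 ± 0.13 between the doses (adjusted p = 1.13e-06). Its 10 listed transcripts gave -1.87 to -1.66 at 12000 fibers.

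Itga6 (chromosome 2, 71745616 to 71858416, plus strand) codes for the alpha6 chain, which pairs with beta4 in hemidesmosomes and with beta1 elsewhere. Control CPM was 506, 419, 412 and 415. With 12000 fibers CPM was 195, 190.0, 222 and 214, and with 30000 fibers 126, 127, 138 and 129.6. Again the steps did not overlap, and 3 of the 4 controls lay close together with mouse 1 above them. The changes were -1.10 ± 0.07 (adjusted p = 4.68e-09), -1.75 ± 0.08 (adjusted p = 2.11e-13) and, between the doses, -0.66 ± 0.08 (adjusted p = 7.31e-07). Per kb of transcript the level of Itgb4 was 1.33 to 1.53 times that of Itga6 without fibers, 0.875 to 0.965 times at 12000 fibers and 0.554 to 0.701 times at 30000 fibers. The ratio of beta4 to alpha6 RNA thus fell at each dose, without overlap between groups. It rests on 1 representative transcript per gene and an unknown read counter, so which RNA was the more abundant is uncertain. The other partner of alpha6, Itgb1, was at -0.01 at 12000 fibers, and its level per kb was 1.9 to 2.88 times that of Itgb4 in controls and 7.4 to 8.69 times at 12000 fibers.

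Inside the cell the steps were smaller. Plec, which codes for plectin, the link from integrin beta4 to keratin filaments, stood at 1193, 1127, 1103 and 1039 CPM in controls, 976, 954, 1004 and 923 at 12000 fibers and 557, 690.0, 672 and 596 at 30000 fibers. The groups did not overlap. The fall at 12000 fibers was slight at -0.21 ± 0.07 (adjusted p = 0.0268), and the call was lost without control mouse 1 (-0.18, adjusted p = 0.072) or without mouse 1, 2 or 4 of the 12000-fiber group (adjusted p = 0.0539, 0.0623 and 0.0783). At 30000 fibers Plec changed by -0.83 ± 0.07 (adjusted p = 7.22e-09). Cd151, the tetraspanin that binds laminin-binding integrins, was 137, 146, 132 and 126 CPM in controls, 167, 176, 161 and 153 at 12000 fibers and 125, 132, 143 and 139 at 30000 fibers. It was higher at 12000 fibers, in all 4 same-mouse pairs (0.28 ± 0.06, adjusted p = 0.00212), and at -0.01 ± 0.07 at 30000 fibers (adjusted p = 0.923), where its transcripts and the scaling gave different answers (-2.43 to 0.06 over its transcripts, and 0.33 with TMM over all transcripts).

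**Figure D2:**
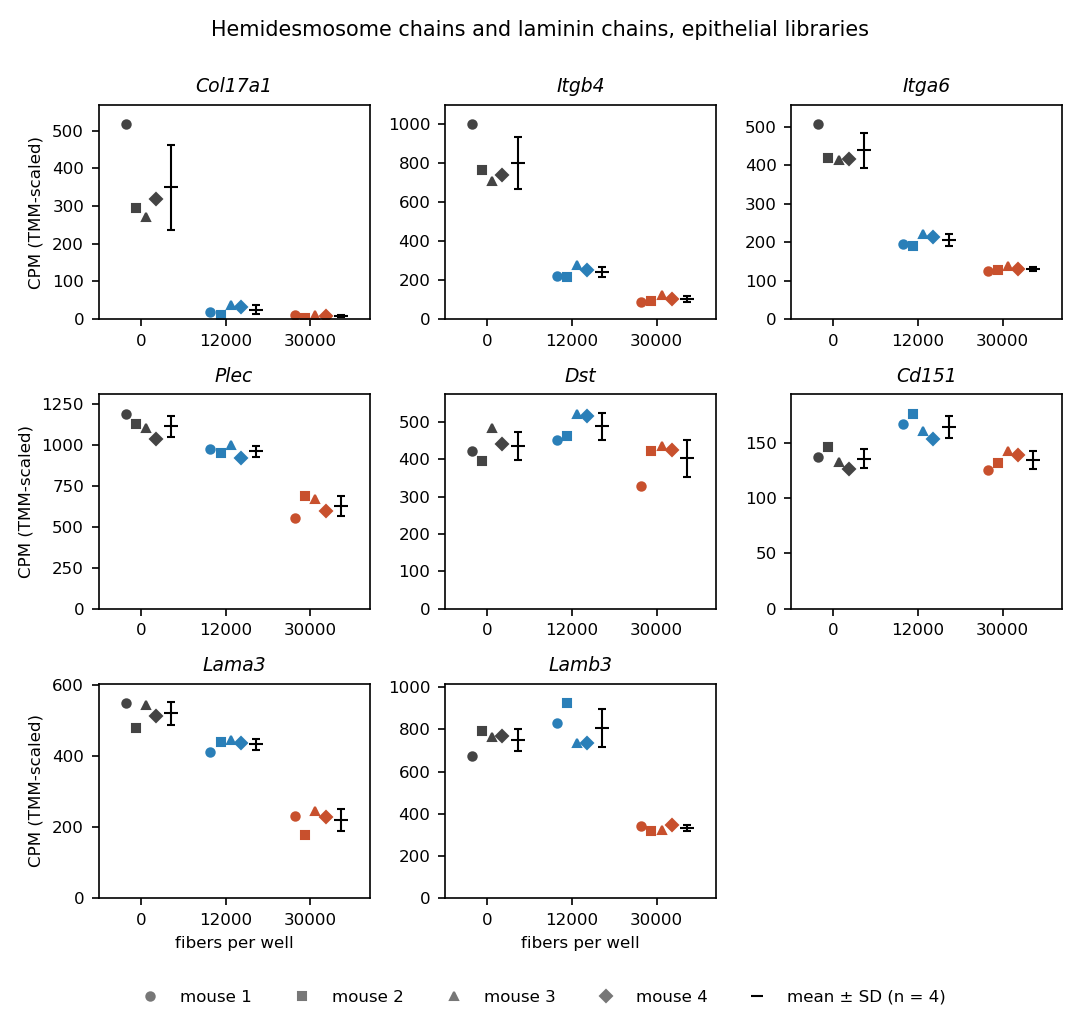
CPM (y axes, from 0) of the 6 hemidesmosome chains and the laminin chains Lama3 and Lamb3, by fibers per well, with a symbol for each mouse and the mean ± SD of 4 libraries in black. Col17a1, Itgb4 and Itga6 drop at 12000 fibers with no overlap between groups, while Lamb3 and Dst do not.

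Dst is a very large gene whose name covers different proteins (chromosome 1, 33908225 to 34308661, plus strand). The epithelial form of dystonin, also called BPAG1e, is the short form that sits in hemidesmosomes, and the long forms serve muscle, nerve and other cells. The representative transcript was Dst-203, a long form of 23279 nt and 98 exons. It gave 423, 397, 484 and 441 CPM in controls, 452, 462, 522 and 517 at 12000 fibers and 329.9, 423, 436 and 426 at 30000 fibers, with overlapping ranges at 12000 fibers against control (0.16 ± 0.08, adjusted p = 0.141; at 30000 fibers -0.11 ± 0.09, adjusted p = 0.267). The short transcript Dst-213 behaved differently. It has 24 exons and 8788 nt, codes for 2639 residues, spans 34160330 to 34183904 and ends in an exon of 2770 nt that no long Dst model contains, and 5473 of its bases lie in no other Dst model except Dst-219. Of the listed forms its length and its own end match the epithelial form, a match made from background knowledge and after its values were seen.

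Dst-213 stood at 212, 171, 180.3 and 200.2 CPM in controls. It was 61.5, 61.6, 85.5 and 78.8 at 12000 fibers and 37.2, 46.2, 53.0 and 50.1 at 30000 fibers. The groups did not overlap, and its mean fell from 191 ± 18.5 to 71.8 ± 12.2 and 46.6 ± 6.86 (SD, n = 4). In a fit with every listed transcript as its own feature, on the same scaling, Dst-213 changed by -1.41 ± 0.11 at 12000 fibers (adjusted p = 2.48e-08) and -2.02 ± 0.12 at 30000 fibers (adjusted p = 8.83e-11). Dst-219, a single-exon model of 4342 nt of which 3706 lie in Dst-213, marks the part that the long forms lack. It changed by -2.36 ± 0.14 and -3.45 ± 0.19 (adjusted p = 3.15e-10 and 6.1e-12), from 65.9 ± 6.37 CPM to 13.0 ± 3.62 and 5.93 ± 1.74. Dst-217 starts at the same base as Dst-213, runs past it to 34193263 without that last exon, and was at -0.18 ± 0.08 at 12000 fibers (adjusted p = 0.0979). Among the 44 members with more than 1 tested transcript, Dst was the only gene whose transcripts spread by more than 1 on the log2 scale at 12000 fibers (from -2.36 to 0.48), where the median spread was 0.12.

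Start-site sequences are shown for Col17a1, which had the largest fall of the hemidesmosome chains, and for the separate starts of the short and long Dst transcripts. RefSeq windows (GRCm38.p6, 250 bases before to 50 after a start site) were found for 33 of the 48 members, 40 windows in all. Capitals mark matches on either strand to 4 motifs: TGANTCA (AP-1), GGGCGG (GC box), CCAAT and GGAATG (TEAD). Shown are the Col17a1 start, the Dst start just upstream of Dst-213 and Dst-217, and a Dst start upstream of the long form Dst-203.
Col17a1, chr19:47691993-47692292, minus strand: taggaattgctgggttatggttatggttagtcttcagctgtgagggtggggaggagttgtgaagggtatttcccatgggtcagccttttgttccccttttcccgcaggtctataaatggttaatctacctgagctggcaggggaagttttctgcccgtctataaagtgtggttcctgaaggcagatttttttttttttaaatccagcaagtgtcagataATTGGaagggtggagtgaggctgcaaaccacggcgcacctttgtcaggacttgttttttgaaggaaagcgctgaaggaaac
Dst, short-form start, chr1:34160010-34160309, plus strand: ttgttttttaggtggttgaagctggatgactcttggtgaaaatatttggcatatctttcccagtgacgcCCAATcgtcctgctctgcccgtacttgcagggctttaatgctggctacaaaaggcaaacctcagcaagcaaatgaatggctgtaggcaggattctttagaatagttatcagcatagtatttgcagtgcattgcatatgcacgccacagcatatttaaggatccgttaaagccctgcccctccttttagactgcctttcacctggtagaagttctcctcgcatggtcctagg
Dst, upstream start, chr1:34011345-34011644, plus strand: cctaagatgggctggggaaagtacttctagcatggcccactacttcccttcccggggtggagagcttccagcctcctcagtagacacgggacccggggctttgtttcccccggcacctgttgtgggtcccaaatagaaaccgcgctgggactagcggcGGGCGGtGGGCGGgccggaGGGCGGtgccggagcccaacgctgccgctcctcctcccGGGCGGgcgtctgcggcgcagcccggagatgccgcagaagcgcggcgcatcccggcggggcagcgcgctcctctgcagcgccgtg
The upstream Dst window holds 4 GC boxes and 70.3% G and C, while the short-form window and the Col17a1 window hold none, with 46.0% and 46.3% G and C and a single CCAAT match each. GC boxes occur in 35.7% of all 32851 windows of this length and in 55.0% of the 40 member windows, CCAAT in 37.4% and 27.5%, AP-1 in 7.81% and 5.00% and TEAD in 14.7% and 10.0%. These matches describe letters in a window and were not related to binding.

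The laminin chains Lama3 and Lamb3 of the hemidesmosome changed little at 12000 fibers, where Lama3 was lower and Lamb3 was not called, and both were lower at 30000 fibers. Lamb3, the beta3 chain, was 676, 792, 766 and 770.2 CPM in controls, 832, 924, 734 and 735 at 12000 fibers and 343, 317, 323 and 347 at 30000 fibers. It overlapped the controls at 12000 fibers (0.10 ± 0.08, adjusted p = 0.316) and lay under them at 30000 fibers (-1.18 ± 0.08, adjusted p = 1.24e-10).

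Lama3, the alpha3 chain, was 548, 478, 543 and 511 CPM in controls, 410.1, 439, 446 and 436 at 12000 fibers and 231, 176, 246 and 228 at 30000 fibers, without overlap (-0.27 ± 0.08, adjusted p = 0.0128, and -1.24 ± 0.08, adjusted p = 1.28e-10). The gene has a long transcript (Lama3-201, 10548 nt, used here) and a short one (Lama3-202, 5551 nt), which shares its end. The short transcript was at -0.52 ± 0.09 and -1.34 ± 0.09, and the long at -0.27 ± 0.08 and -1.24 ± 0.08. The transcripts share exons, so the long value may hold reads of the short form.

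Per kb of transcript the controls carried Lamb3 at 185 ± 12.7 CPM per kb well above Lama3 at 49.3 ± 3.08. Lama5, the alpha5 chain of most epithelial basement membranes, had 191 ± 10.2, so Lama5 and Lamb3 did not differ beyond their spread.

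The other 7 laminin chains moved in different directions. At 12000 fibers Lama1, Lamb1, Lama5 and Lamc1 were lower, Lama2 was higher and Lama4 and Lamb2 were not called, with a median of -0.23. At 30000 fibers 5 were lower and Lama2 and Lama4 were higher, with a median of -0.55. Lama1, the alpha1 chain known from early embryos and a major chain of Matrigel's own laminin, was 102, 70.9, 58.5 and 53.7 CPM in controls and 4.75, 2.66, 6.83 and 7.23 at 12000 fibers. Its fall of -3.74 ± 0.27 (adjusted p = 9.83e-07) was close in size to that of Col17a1 and without overlap. At 30000 fibers it was 1.18, 1.06, 1.18 and 0.668 CPM, which is 2 to 4 reads per library and 12 in the group, so that the size of the fitted change, -6.10 ± 0.45 (adjusted p = 2.27e-07), is uncertain.

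Lama2, the alpha2 chain of muscle and mesenchyme, rose from low levels: 1.27, 2.24, 4.43 and 2.53 CPM in controls, 7.17, 4.40, 5.30 and 5.36 at 12000 and 11.0, 13.4, 11.5 and 7.35 at 30000 fibers. The 12000-fiber range touched that of the controls (1.13 ± 0.27, adjusted p = 0.00287), and the 30000-fiber range lay above both (2.06 ± 0.29, adjusted p = 4.28e-06). Lama4, the alpha4 chain of vessels and mesenchyme, was 4.86, 5.25, 10.8 and 7.79 CPM in controls, 10.1, 7.19, 11.0 and 12.7 at 12000 and 13.7, 17.3, 12.4 and 16.4 at 30000 fibers. It overlapped at 12000 fibers (0.53 ± 0.22, adjusted p = 0.068, or 0.55 and 0.0348 with the mouse as a block), and all 30000-fiber libraries were above the controls (1.07 ± 0.24, adjusted p = 0.00101).

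Among the broadly expressed chains Lamb1, the beta1 chain, was 370.3, 355, 397 and 352 CPM in controls, 303, 256, 344 and 295 at 12000 and 218, 258, 286 and 248 at 30000 fibers, lower by small steps (-0.30 ± 0.09, adjusted p = 0.00942, and -0.54 ± 0.09, adjusted p = 2.22e-05). Lama5 changed by -0.25 ± 0.08 at 12000 fibers (adjusted p = 0.0149) and -1.37 ± 0.08 at 30000 fibers (adjusted p = 1.3e-11). Lamc1, the gamma1 chain shared by most trimers, changed by -0.23 ± 0.06 and -0.55 ± 0.06 (adjusted p = 0.00373 and 8.2e-08). Lamb2 was at -0.03 ± 0.08 (adjusted p = 0.778) and -0.77 ± 0.09 (adjusted p = 2.15e-07). For Lama5 and Lamc1 the 30000-fiber direction depended on which transcript was read: the 734 nt transcript Lama5-203 at the end of the gene was at 0.34 ± 0.07 and the full-length Lama5-201 at -1.37 ± 0.08, and Lamc1-204, also an end piece, was at 0.53 ± 0.07 against -0.55 ± 0.06 for Lamc1-201. At 12000 fibers the same transcripts agreed, at -0.37 ± 0.07 and -0.25 ± 0.07 for Lama5 and -0.28 ± 0.07 and -0.23 ± 0.06 for Lamc1.

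That difference between the doses ran through the members. Over the 44 members with at least 2 tested transcripts (242 transcripts), the median spread between a gene's transcripts was 0.12 at 12000 fibers and 1.28 at 30000 fibers, and 1 gene against 27 spread by more than 1. Cd151 is a plain case: its 10 transcripts gave 0.22 to 0.32 at 12000 fibers and -2.43 to 0.06 at 30000 fibers. Itga6 transcripts gave -1.17 to -1.07 and then -3.07 to -0.77, all lower. Beside Lama5 and Lamc1, 30000-fiber transcripts were called in both directions for Itgav (-2.94 to 2.09, 8 lower and 1 higher) and Itgb5 (-4.18 to 2.48, 4 and 1). The same held for Itgb6 (-1.09 to 0.60, 6 and 1) and Hspg2 (-0.86 to 0.33, 1 and 2). Read by the second highest transcript, calls at 12000 fibers were lost for Nid1 (0.74, adjusted p = 0.071), Itgav (0.16, adjusted p = 0.0543) and Lama2 (0.82, adjusted p = 0.0665) and gained for Lama4 (0.88, adjusted p = 0.0155). At 30000 fibers Itgb5 was lost (-0.07, adjusted p = 0.477) and Cd151 gained as lower (-0.75, adjusted p = 3.96e-09). Transcripts of a gene share exons, so they are not independent readings. The spread, the mitochondrial share, the depth, the length trend and the summed epithelial markers changed together at 30000 fibers. Their part in the 30000-fiber changes was not tested.

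**Figure D3:**
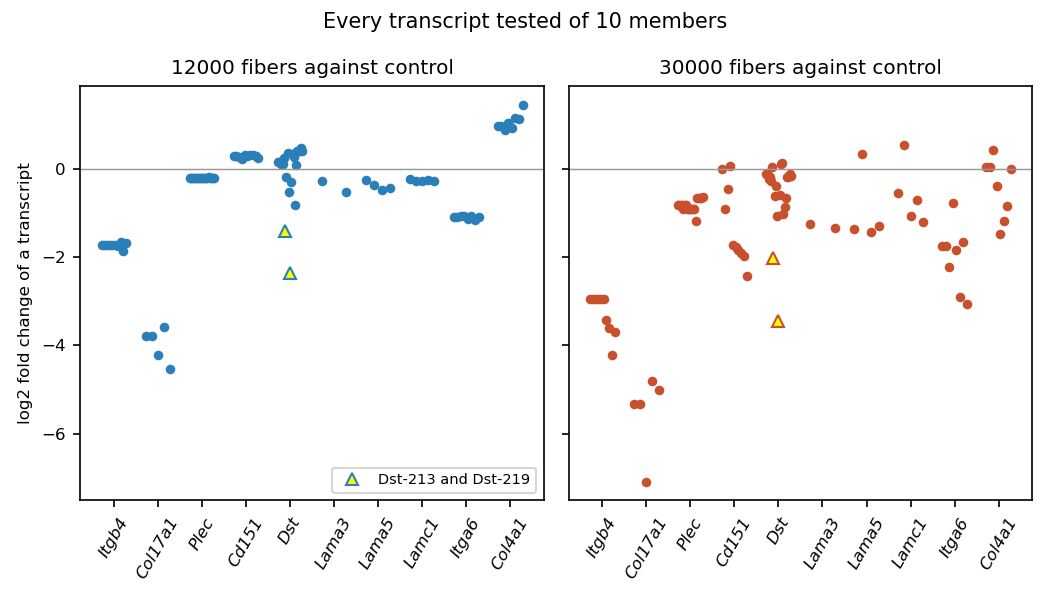
Log2 fold change against control (y axis) of each tested transcript of 10 members, left at 12000 and right at 30000 fibers, with yellow triangles for Dst-213 and Dst-219. At 12000 fibers the transcripts of each gene lie within 1 of each other except those of Dst, and at 30000 fibers those of Cd151, Itga6 and Col4a1 are spread over 1.5 or more.

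All 5 collagen IV chains listed were called at 12000 fibers, Col4a1 to Col4a4 higher and Col4a5 lower, with a median of 0.67. At 30000 fibers Col4a3, Col4a4 and Col4a5 were lower and Col4a1 and Col4a2 were back within the control range, with a median of -0.54, and all 5 were lower at 30000 than at 12000 fibers. So 4 chains rose and then fell along the doses, and Col4a5 only fell.

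Col4a1 and Col4a2 code for the chains of the common trimer and lie head to head on chromosome 8. Col4a1 was 952, 1609.8, 1804 and 1479.6 CPM in controls, 3041, 3307, 2672 and 2494 at 12000 and 1521, 1543, 1459.5 and 1467 at 30000 fibers. The lowest control was mouse 1, and all 12000-fiber libraries were above all others (0.98 ± 0.16, adjusted p = 0.000312, against 0.04 ± 0.16, adjusted p = 0.854, at 30000 fibers). Col4a2 was 693, 1147, 1255 and 1084 CPM in controls, 2085, 2325, 1847 and 1829 at 12000 and 1032, 1102, 995 and 1075 at 30000 fibers. It kept step with its neighbour (0.95 ± 0.15, adjusted p = 0.000214, and 0.01 ± 0.15, adjusted p = 0.963). Per kb, Col4a1 was 1.33 to 1.44 times Col4a2 in every library. The doses differed by -0.94 ± 0.16 for Col4a1 (adjusted p = 0.000209) and -0.94 ± 0.15 for Col4a2 (adjusted p = 0.000113).

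The RefSeq start windows of the pair overlap by 78 bases on opposite strands, and are shown because these members kept a nearly fixed ratio. Capitals mark the same motifs as above.
Col4a1, chr8:11312777-11313076, minus strand: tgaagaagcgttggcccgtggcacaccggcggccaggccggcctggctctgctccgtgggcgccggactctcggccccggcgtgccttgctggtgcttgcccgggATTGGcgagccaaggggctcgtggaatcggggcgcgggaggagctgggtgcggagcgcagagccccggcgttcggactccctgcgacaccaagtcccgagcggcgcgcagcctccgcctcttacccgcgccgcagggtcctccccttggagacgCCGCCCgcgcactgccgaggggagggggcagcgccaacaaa
Col4a2, chr8:11312555-11312854, plus strand: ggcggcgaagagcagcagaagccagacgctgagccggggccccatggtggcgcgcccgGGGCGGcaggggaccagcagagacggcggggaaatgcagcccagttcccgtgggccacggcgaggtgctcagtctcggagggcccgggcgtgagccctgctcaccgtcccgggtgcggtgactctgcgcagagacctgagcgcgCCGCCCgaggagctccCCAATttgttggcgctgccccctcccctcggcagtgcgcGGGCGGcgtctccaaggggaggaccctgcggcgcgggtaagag
The Col4a1 window holds 1 GC box and 1 CCAAT match and the Col4a2 window 3 and 1, with 74.0% and 73.7% G and C. The GC box of the Col4a1 window lies in the overlap and is the same site as the last of the 3 in the Col4a2 window.

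Col4a3 and Col4a4 code for chains of the alveolar trimer and are neighbours too, on chromosome 1. Col4a3 was 271, 345, 405 and 385 CPM in controls, 536, 649.9, 519.6 and 535 at 12000 and 238, 233, 237 and 256 at 30000 fibers, 3 steps without overlap (0.67 ± 0.10, adjusted p = 7.02e-05, and -0.54 ± 0.11, adjusted p = 0.000231). Col4a4 was 303, 329.5, 422 and 432 CPM in controls, 444, 525, 436 and 473 at 12000 and 225, 213, 201 and 222 at 30000 fibers. Its rise was the smallest of the 4 (0.34 ± 0.10, adjusted p = 0.0129) and was followed by a fall under the controls (-0.79 ± 0.10, adjusted p = 3.73e-06).

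Col4a5, on the X chromosome, supplies the remaining chain of that trimer. It was 504, 406, 429 and 459 CPM in controls, 331, 337, 334 and 342 at 12000 and 227, 192, 175 and 205 at 30000 fibers, lower at each dose with no overlap (-0.42 ± 0.08, adjusted p = 0.000212, and -1.17 ± 0.08, adjusted p = 1.32e-10). Per kb its level was 0.24 to 0.536 times that of Col4a1 in controls and 0.103 to 0.139 times at 12000 fibers. Col4a3 stood at 0.411 to 0.723 times Col4a5 in controls and at 1.19 to 1.48 times at 12000 fibers. Sums of alveolar type 1 cell markers did not overlap between groups, and those of type 2 cell markers overlapped in part. Many single markers were not called. The 7 of 8 type 1 cell markers listed summed to 1731 to 2053 CPM without fibers, 1291 to 1619.5 with 12000 and 948 to 1119.7 with 30000. At each dose 3 of these 7 were lower and 4 not called. The 6 type 2 cell markers summed to 1441 to 3291, 3049.9 to 5489 and 3779 to 5580.1. Their 12000-fiber range overlapped both others. Of the 6, 1 was higher and 5 not called at 12000 fibers, and 4 were higher and 1 lower at 30000 fibers. No alveolar marker listed was at 0 in any group, and their part in the levels of Col4a3, Col4a4 and Col4a5 was not tested.

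Linkers of the sheet moved apart. At 12000 fibers Nid1, Nid2 and Hspg2 were higher and Agrn was lower, and the same held at 30000 fibers, with medians of 0.63 and 1.12. Nid1, nidogen 1, which joins laminin to collagen IV, was 58.2, 89.9, 159.7 and 109.8 CPM in controls, 190.0, 152, 191 and 170.1 at 12000 and 354, 451, 416 and 354 at 30000 fibers. Control mouse 3 reached into the 12000-fiber range, the call there was weak (0.76 ± 0.25, adjusted p = 0.0388, lost when any 1 of 7 libraries was left out: control mouse 2 or 4, any 12000-fiber library or 30000-fiber mouse 3, with adjusted p from 0.0508 to 0.093), and the 30000-fiber libraries were clear of both (1.92 ± 0.26, adjusted p = 8.71e-05). Nid2, its scarcer relative, was 1.62, 2.14, 4.56 and 2.93 CPM in controls, 5.47, 4.53, 6.14 and 6.97 at 12000 and 10.6, 21.9, 14.1 and 9.69 at 30000 fibers (1.05 ± 0.29, adjusted p = 0.00819, and 2.34 ± 0.30, adjusted p = 1.99e-06).

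Perlecan, from Hspg2, was 307, 351, 448 and 387 CPM in controls, 541, 535, 531 and 509.6 at 12000 and 410.2, 534, 486 and 428 at 30000 fibers. The 12000-fiber libraries were above every control (0.50 ± 0.10, adjusted p = 0.000593), and those of 30000 fibers overlapped the controls (0.32 ± 0.10, adjusted p = 0.00957). Agrn, agrin, was 1295, 1244, 1070.0 and 1119 CPM in controls, 1006, 1011, 987 and 1009.6 at 12000 and 486, 447, 525 and 585 at 30000 fibers. Its 12000-fiber fall was small (-0.24 ± 0.08, adjusted p = 0.0229) and was lost without control mouse 1 or 2 or without mouse 1 or 3 of the 12000-fiber group (adjusted p from 0.0515 to 0.067), whereas at 30000 fibers it was -1.21 ± 0.08 (adjusted p = 1.08e-10). Per kb, agrin led the linkers in controls at 137 ± 12.2 against 26.3 ± 4.20 for perlecan and 17.1 ± 6.99 for Nid1, and at 30000 fibers Agrn at 59.3 ± 6.83 and Nid1 at 64.6 ± 7.91 did not differ beyond their spread.

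**Figure D4:**
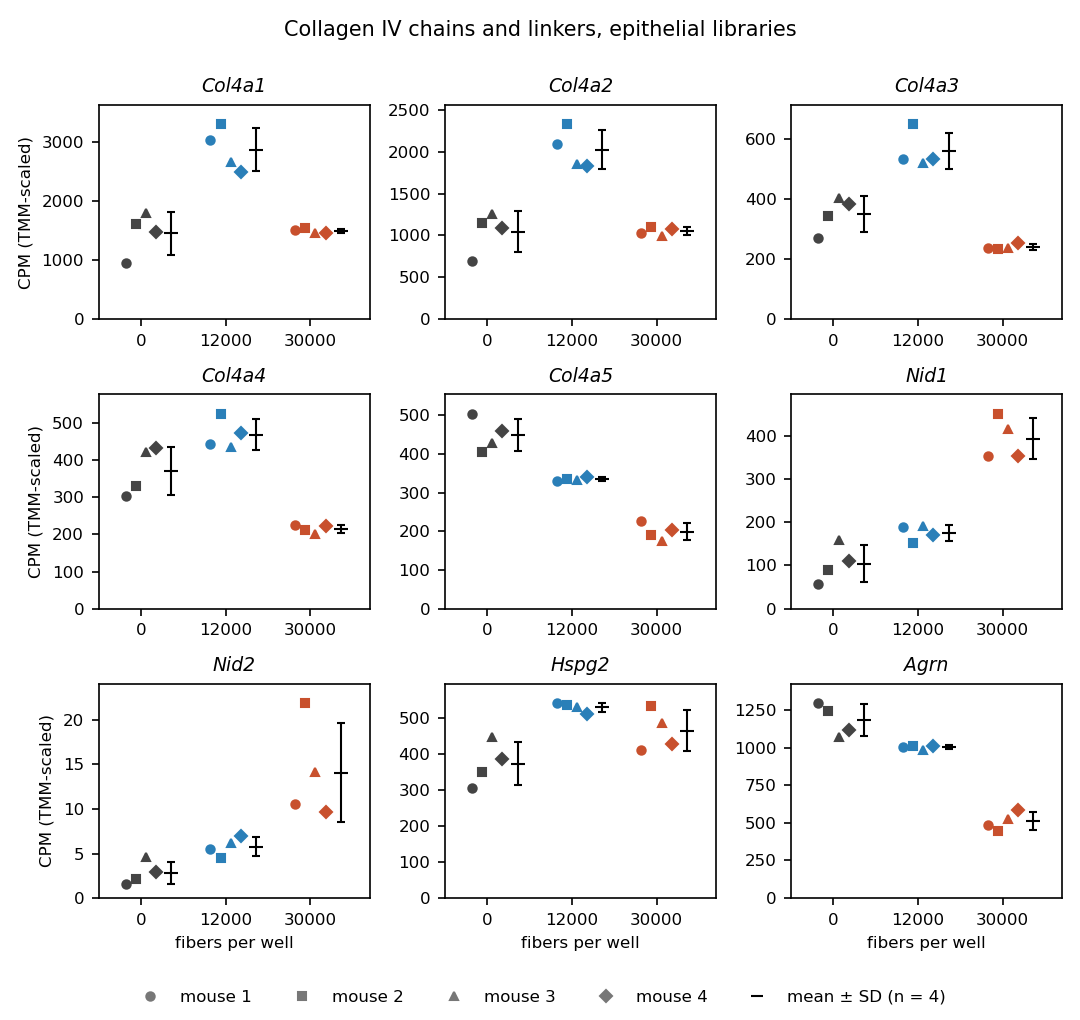
CPM (y axes, from 0) of the 5 collagen IV chains and the 4 linkers by fibers per well, with a symbol for each mouse and the mean ± SD of 4 libraries in black. Col4a1 and Col4a2 peak at 12000 fibers at a mean of 2879 and 2022, Col4a5 steps down, and Nid1 and Nid2 step up.

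The fibroblast marker level was higher in the fiber libraries, where 16 members were higher at 12000 fibers. Over the controls alone, the mean log2 CPM of the fibroblast markers was 4.063 in mouse 1, 4.837 in mouse 2, 4.984 in mouse 4 and 5.537 in mouse 3, and 11 of the 48 members took the 4 mice in that same order. They were 8 of the 16 members higher at 12000 fibers (Nid1, Nid2, Lama2, Itgb2, Itgb3, Hspg2, Col4a3 and Itga9), none of the 15 lower and 3 of the 17 not called. Among the higher members with another order were Itga5, Col4a1, Col4a2, Col4a4 and Cd151. The share of all genes that took this order was not counted, so these counts cannot show a trait particular to the members. The fibroblast level was 5.811 to 6.112 at 12000 fibers and 6.723 to 7.062 at 30000 fibers. With this level as a covariate in the fit, 4 members were called at 12000 fibers, all lower: Col17a1 at -3.09, Lama1 at -3.06, Itgb4 at -1.36 and Itga6 at -0.88. At 30000 fibers 23 were called, all lower, and no member was called higher at either dose. Calls fell over all genes too: of 13759 tested, this fit called 169 higher and 770 lower at 12000 fibers. At 30000 fibers it called 1436 higher and 1845 lower. Nid1 was then at -0.29 and -0.01 at the 2 doses, Lama2 at -0.29 and -0.56, and Col4a1 at 0.40 (adjusted p = 0.187) and -1.03. The fibroblast level rose with the dose in every mouse, so this fit has little room to part the level from the fibers, and the gene values of the fibroblast fraction were not used here.

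**Figure D5:**
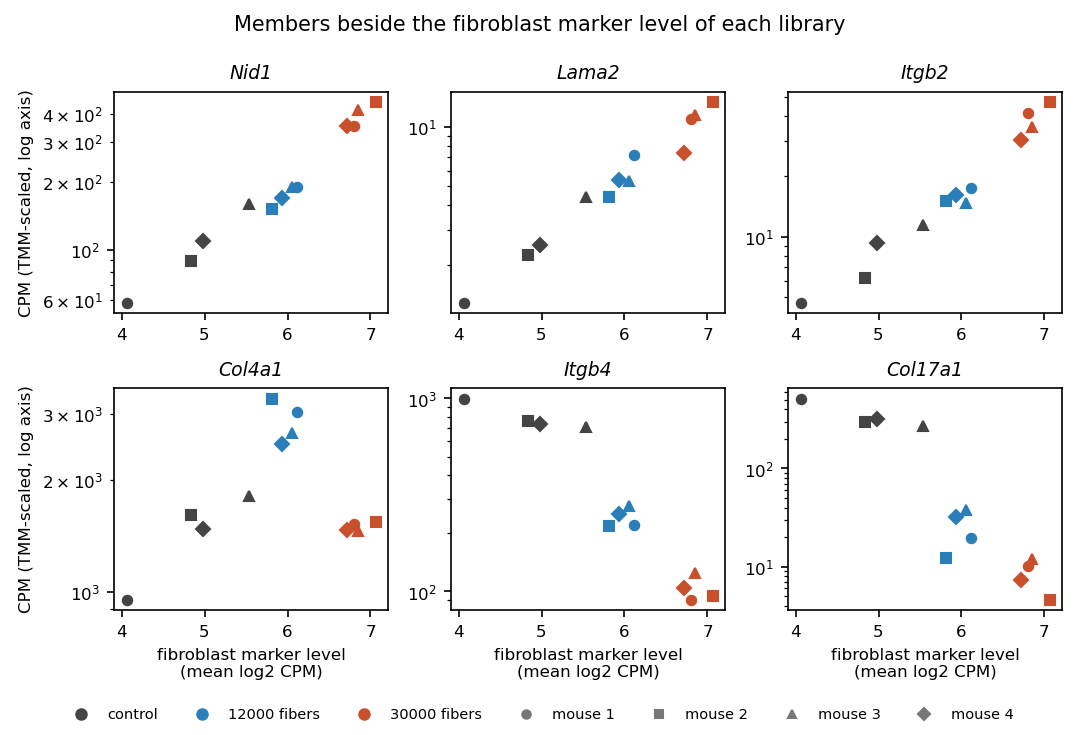
CPM of 6 members (y axes, log scale) against the mean log2 CPM of the fibroblast markers (x axes) in each of the 12 epithelial libraries, with colour for the fiber number and symbol for the mouse. Nid1, Lama2 and Itgb2 climb with the fibroblast level among the controls and across groups, Itgb4 and Col17a1 drop between the control and the fiber libraries, and Col4a1 is highest at 12000 fibers.

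Of the 12 other integrin alpha chains, 3 were higher (Itga5, Itga9 and Itgav) and 2 lower (Itga1 and Itga3) at 12000 fibers, with a median of 0.11, and 2 were higher and 5 lower at 30000 fibers, with a median of -0.18. Itga5, the fibronectin-binding alpha5 chain, was 75.5, 99.8, 125 and 87.0 CPM in controls, 203, 174, 196 and 172 at 12000 and 192, 261, 232 and 222 at 30000 fibers. All fiber libraries were above all controls (0.95 ± 0.14, adjusted p = 0.000128, and 1.23 ± 0.14, adjusted p = 4.44e-06). Itga9, the alpha9 chain that binds tenascin C, was 116, 163, 174 and 172 CPM in controls, 242, 279.9, 230.4 and 223 at 12000 and 136, 115, 115 and 119 at 30000 fibers, a peak at the lower dose (0.64 ± 0.11, adjusted p = 0.000384, and -0.37 ± 0.12, adjusted p = 0.0136). Itga1, the collagen-binding alpha1 chain, was 13.2, 11.1, 9.51 and 11.5 CPM in controls, 6.01, 4.93, 6.69 and 4.96 at 12000 and 6.27, 6.70, 7.95 and 6.68 at 30000 fibers. It was lower at both doses without overlap (-1.0 ± 0.15, adjusted p = 2.69e-05, and -0.71 ± 0.18, adjusted p = 0.00151). Itga10, low throughout, was 3.01, 3.41, 2.21 and 3.54 CPM in controls, 2.33, 1.47, 2.37 and 2.14 at 12000 and 1.96, 2.47, 3.53 and 3.34 at 30000 fibers and was not called (-0.55 ± 0.24, adjusted p = 0.0723).

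Of the alpha chains chosen, alpha3, a partner of beta1 on laminin, had the highest level per kb in controls (227 ± 16.1 CPM per kb). Next were Itga2, a collagen receptor chain (129.8 ± 10.6), Itga6 (102 ± 10.5) and Itgav (82.0 ± 3.13). Itga3 was at -0.22 ± 0.08 at 12000 fibers (adjusted p = 0.035, lost without control mouse 1 or 2 or without any single 12000-fiber library, with adjusted p from 0.0511 to 0.103) and at -1.43 ± 0.08 at 30000 fibers (adjusted p = 1.11e-11). At 30000 fibers Itga2 stood at 108 ± 19.4 and Itga3 at 84.1 ± 10.8 CPM per kb, with overlapping SDs. Itga2 itself was not called against control at either dose (-0.04 ± 0.11 and -0.26 ± 0.11, adjusted p = 0.815 and 0.055), although the second was called once mice were blocked (-0.28, adjusted p = 0.0155), and by its second highest transcript it was -1.55 (adjusted p = 7.67e-07).

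Itgav, the alphav chain of the receptors that activate latent TGF-beta, was at 0.16 ± 0.06 at 12000 fibers (adjusted p = 0.0405, lost without control mouse 1 or 4 or without mouse 1, 2 or 3 of the 12000-fiber group, with adjusted p from 0.0682 to 0.117) and at -0.42 ± 0.06 at 30000 fibers (adjusted p = 6.5e-06). Itga7, a laminin-binding chain of muscle, was not called at 12000 fibers (-0.05 ± 0.18, adjusted p = 0.85) and was lower at 30000 (-1.0 ± 0.22, adjusted p = 0.00131). Itga8, a mesenchymal chain, was not called at 12000 fibers (0.53 ± 0.26, adjusted p = 0.109) and was higher at 30000 (1.71 ± 0.27, adjusted p = 1.28e-05). Itga4, Itga11 and Itga2b were at mean levels of 1.41 to 3.73 CPM and were called at neither dose.

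The 7 other beta chains gave 2 higher (Itgb2 and Itgb3) and 1 lower (Itgb8) at 12000 fibers, with a median of -0.01, and 1 higher and 4 lower at 30000 fibers, with a median of -0.52. Itgb1, the partner of most alpha chains, was the most abundant of the chosen integrins per kb in controls (352 ± 11.4 CPM per kb). It stayed at -0.01 ± 0.06 at 12000 fibers (adjusted p = 0.906) and was at -0.83 ± 0.06 at 30000 fibers (adjusted p = 1.05e-09). Itgb3, the beta3 chain, was 87.0, 107, 155 and 112 CPM in controls, 187, 191, 194 and 175 at 12000 and 74.0, 76.5, 91.6 and 78.5 at 30000 fibers, so that the lower dose stood above both other groups (0.70 ± 0.13, adjusted p = 0.00107, and -0.52 ± 0.15, adjusted p = 0.00711). Itgb2, the beta2 chain of leukocytes, was 4.63, 6.23, 11.5 and 9.31 CPM in controls, 17.6, 15.1, 14.6 and 16.2 at 12000 and 41.5, 47.3, 35.3 and 30.4 at 30000 fibers, 3 steps upward without overlap (1.02 ± 0.21, adjusted p = 0.00126, and 2.29 ± 0.21, adjusted p = 1.67e-07). Of 10 immune markers 5 were listed, and their summed CPM ran from 194 to 268 without fibers, from 205 to 318 with 12000 and from 345 to 523 with 30000. Single markers differed: 1 was higher, 1 lower and 3 not called at 12000 fibers, and 3, 1 and 1 at 30000 fibers. Their 30000-fiber median of 0.85 was 0.18 once the median of the gene's length class was taken off. The pan-leukocyte gene Ptprc and the beta2 partners Itgam and Itgax had no transcript in the table, and the part of immune cells was not tested.

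Itgb8, the beta8 chain that pairs with alphav, was 3.70, 5.06, 3.91 and 5.46 CPM in controls, 1.34, 2.00, 1.67 and 4.42 at 12000 and 1.96, 2.82, 2.65 and 4.01 at 30000 fibers. One 12000-fiber library overlapped the controls (-0.99 ± 0.29, adjusted p = 0.0106), the call was lost without mouse 1 of that group (-0.75, adjusted p = 0.0592), and the higher dose was not called (-0.66 ± 0.35, adjusted p = 0.105, or -0.67 and 0.0412 with the mouse as a block). Itgb7, the beta7 chain of lymphocytes, was 1.16, 1.36, 1.56 and 2.23 CPM in controls, 0.897, 0.933, 1.12 and 1.21 at 12000 and 1.57, 1.41, 0.294 and 3.01 at 30000 fibers and was not called (-0.62 ± 0.36, adjusted p = 0.188). Itgb6, the epithelial partner of alphav, was at 0.07 ± 0.08 at 12000 fibers (adjusted p = 0.549) and at -0.74 ± 0.09 at 30000 fibers (adjusted p = 3.17e-07). Itgb5 was not called at 12000 fibers (-0.13 ± 0.08, adjusted p = 0.237), and its call at 30000 fibers (-0.24 ± 0.09, adjusted p = 0.0251) was lost without mouse 3 or 4 of that group (adjusted p = 0.061 and 0.132) and turned to 0.10 with TMM over all transcripts.

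Dag1, dystroglycan, the laminin receptor outside the integrin family, was 609, 678, 645 and 670.4 CPM in controls, 684, 716, 644 and 638 at 12000 and 552, 495, 519.9 and 476 at 30000 fibers. It did not part from the controls at 12000 fibers (0.04 ± 0.07, adjusted p = 0.644), and its fall at 30000 fibers (-0.35 ± 0.07, adjusted p = 0.000119) was -0.01 with TMM over all transcripts. Of the 3 pattern matches that are no chain, Itgb1bp1, an adaptor that binds the beta1 tail, was 9.38, 10.2, 10.7 and 11.8 CPM in controls, 15.5, 13.9, 16.6 and 14.3 at 12000 and 20.4, 22.6, 18.3 and 22.0 at 30000 fibers, higher at both (0.52 ± 0.11, adjusted p = 0.00131, and 0.98 ± 0.13, adjusted p = 1.27e-06). Col4a3bp, a ceramide transfer protein, was 108, 121, 108 and 117 CPM in controls, 129, 139, 142 and 141 at 12000 and 119.9, 102, 118 and 121 at 30000 fibers (0.28 ± 0.06, adjusted p = 0.00224, and 0.02 ± 0.07, adjusted p = 0.81). Itgb1bp2, a muscle chaperone, was 1.74, 2.24, 2.08 and 1.52 CPM in controls, 1.34, 1.47, 0.697 and 2.14 at 12000 and 0.784, 1.41, 1.18 and 0.668 at 30000 fibers and was not called.

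Genes around these members were read from 5 lists. Of 15 other basement membrane genes tested, 4 were higher and 7 lower at 12000 fibers (median -0.34) and 3 and 10 at 30000 fibers (median -0.67). The 4 with the smallest p at 12000 fibers were all lower: Papln, papilin (-3.44 ± 0.33), Fras1, which anchors epithelium to the sheet (-2.47 ± 0.24), Fbln1, fibulin 1 (-3.28 ± 0.25), and Tgfbi, a collagen-binding matrix protein (-1.51 ± 0.16), with adjusted p of 2.1e-07, 2.88e-07, 2.97e-07 and 9.38e-06. Of 14 genes that fold and crosslink collagen IV, 7 were higher and 2 lower at 12000 fibers (median 0.21), and 7 and 3 at 30000 fibers (median 0.16). Serpinh1, the collagen chaperone, was higher (0.65 ± 0.10, adjusted p = 8.65e-05), as was the crosslinking enzyme Loxl2 (0.92 ± 0.16, adjusted p = 0.000531). Pxdn, the peroxidase that forms the sulfilimine bonds of collagen IV, was lower (-0.53 ± 0.08, adjusted p = 2.06e-05), and so was the prolyl hydroxylase P4ha2 (-0.33 ± 0.08, adjusted p = 0.00405).

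Of 27 focal adhesion adaptors, which couple integrin tails to actin, 13 were higher and 2 lower at 12000 fibers (median 0.19), and 10 and 8 at 30000 fibers (median 0.04). Fermt2, kindlin 2, was at 0.75 ± 0.09 (adjusted p = 5.54e-06), Actn1, an actin crosslinker, at 0.60 ± 0.08 (adjusted p = 1.16e-05), Kank2 at 0.43 ± 0.08 (adjusted p = 0.000255), and Parva, parvin alpha, at -0.42 ± 0.06 (adjusted p = 9.13e-06). Of 15 integrin ligands and other matrix receptors, 6 were higher and 5 lower at 12000 fibers (median 0.06) and 5 and 8 at 30000 fibers (median -0.24). They included Bcam, a receptor for laminin alpha5 (-0.46 ± 0.09, adjusted p = 0.000246), the syndecan Sdc4 (-0.44 ± 0.07, adjusted p = 6.38e-05), Cd47 (-0.77 ± 0.08, adjusted p = 4.32e-07) and the matricellular gene Ccn2 (0.70 ± 0.10, adjusted p = 1.98e-05). Of 18 genes that glycosylate or bind dystroglycan, 5 were higher and 3 lower at 12000 fibers (median 0.12) and 4 and 8 at 30000 fibers (median -0.15), with the sarcoglycan Sgce at 0.75 ± 0.13, the dystrobrevin Dtna at 0.42 ± 0.10, and Rxylt1, an enzyme of the sugar chain that binds laminin, at 0.28 ± 0.07 (adjusted p = 0.000171, 0.00174 and 0.00305). Against the 18.7% of all genes that were higher and the 19.3% that were lower at 12000 fibers, the shares in each list are a description with no test.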

How the data were processed

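Of the 24 RNA-seq libraries, the 12 of epithelial cells were analysed. The authors deposited raw counts per Ensembl transcript, and per the submitters' processing notes the tools were HISAT2 2.1.0 (build mm10), cutadapt 1.12, FastQC and bcl2fastq. The read counter, strand setting and barcode use were not given in the sources used here. Fibroblast columns held 107814 entries, 36733 below the last identifier, and were unrelated to the identifiers (Spearman 0.047 with the epithelial columns), so no gene of that fraction was read.

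The transcript with the highest mean over the epithelial libraries stood for its gene. The 12 libraries were fitted together in edgeR 4.0.16 under R 4.3.3 (filterByExpr, TMM, robust dispersions, quasi-likelihood F test, 9 residual degrees of freedom), which was tested on simulated data, with adjusted p under 0.05 called. SEs come from the F statistic. CPM is counts per 1e6. Coordinates and lengths are from GENCODE M21, start windows from RefSeq (GRCm38.p6). Counting error and mouse differences bound each value, and the barcodes' use being unknown, reads may not be independent molecules.

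Same-numbered libraries share a mouse per the labels. The correlation of their deviations was -0.019 to 0.156, and the mouse as a block was an alternative. Others were DESeq2 1.42.0, other scaling, filters and transcripts, length classes, a fibroblast covariate and leaving out libraries. Scaling by TMM over all transcripts was added after seeing the data. Hemidesmosome and collagen IV genes are given per library, as are the 4 largest changes of each other role class at 12000 fibers. At most 4 genes per list, by smallest p at 12000 fibers, are named. Members and lists were chosen with earlier results of these data known. Some results that are withheld are not reported here, though counts over the members and lists include them.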

Additional observations from a re-analysis of the deposited data

Results flagged for a closer look

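In 7 of the 144 sets of 4 libraries tested (48 members in 3 groups), a single library stood apart by Dixon's criterion, and chance alone flags about 1 in 20. Col4a3 at 12000 fibers was 649.9 CPM in mouse 2 and 519.6 to 536 in the others. Dst at 30000 fibers was 329.9 CPM in mouse 1 and 423 to 436 in the others. Itga6 in controls was 506 CPM in mouse 1 and 412 to 419 in the others. Itgb1 at 30000 fibers was 820.1 CPM in mouse 3 and 724 to 739 in the others. Itgb6 at 30000 fibers was 215 CPM in mouse 2 and 262 to 268 in the others. Lamc1 at 12000 fibers was 365 CPM in mouse 2 and 356 to 357 in the others. Col4a3bp at 30000 fibers was 102 CPM in mouse 2 and 118 to 121 in the others.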

How the results depend on the processing

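The counts of members called, 31, 35 and 35 in the comparisons of 12000 fibers with control, 30000 fibers with control and 30000 with 12000 fibers, were the same with DESeq2, with RLE factors in edgeR, without a filter on low counts and without mitochondrial genes, and no member changed side there. They were 25 to 33, 35 to 36 and 32 to 37 without single libraries. With the mouse as a replicate block they were 32, 37 and 36, and the block changed no call other than those of Lama4 (12000 fibers and between doses), Itga2 (30000 fibers and between doses), Itgb8 (30000 fibers) and Col17a1 (between doses). With the fibroblast level as a covariate they were 4, 23 and 28, and over all genes 939, 3281 and 6055 were called in place of 5231, 9026 and 7621. That fit turned Agrn to 0.02, Nid1 to -0.29, Nid2 to -0.26 and Lama2 to -0.29 at 12000 fibers. At 30000 fibers it turned Col4a1 to -1.03, Col4a2 to -0.98, Hspg2 to -0.46, Nid1 to -0.01, Nid2 to -0.08, Lama2 to -0.56 and Lama4 to -0.54, and between doses Lama2 to -0.27. Summed transcripts gave Itgb5 0.00 and Col4a3bp -0.26 at 30000 fibers. The second highest transcript gave Lama5 0.50, Lamc1 0.69 and Col4a3bp -0.42 at 30000 fibers, and Lama5 0.87 and Lamc1 0.96 between doses. TMM over all transcripts, chosen after seeing the data, gave Cd151 0.33, Dst 0.23 and Itgb5 0.10 at 30000 fibers. Between doses it gave Cd151 0.06, Dst 0.07, Itgb5 0.23, Lamb1 0.10, Lamc1 0.02 and Col4a3bp 0.09, with a median over all genes of 0.33 and 11 members higher and 22 lower in place of 6 and 29. There, over all genes, 6800 were higher and 1352 lower in place of 3893 and 3728. The cause of these turns was not tested. Few reads limit Lama1 (2 to 4 per library) and Col17a1 (13 to 41) at 30000 fibers, and other low members such as Itgb7 (1 to 9) and Itga4 (4 to 6).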
